A study of Mus musculus with 12 samples.

Results

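The 33 genes described here make cholesterol, control its synthesis, move it inside the cell, or govern its uptake and efflux. They were the rows of the gene expression table whose gene name stood on a list written by hand, 33 of the 34745 genes in the table, and all of them had enough counts to be tested in every comparison. The list was chosen with earlier results of these data known. By role, 20 were enzymes of synthesis, 8 of them in the mevalonate and isoprenoid part and 12 in the squalene and sterol part. A further 4 were regulators of synthesis (Srebf2, Scap, Insig1, Insig2), 4 moved or stored cholesterol (Stard4, Npc1, Npc2, Soat1), and 5 belonged to uptake and efflux (Nr1h2, Nr1h3, Abca1, Abcg1, Mylip).

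RNA was sequenced from MLE-12 cells, a single mouse alveolar type II (AT II) line transformed with the SV40 large T antigen under the promoter of surfactant protein C. The study used them as cell models of bronchopulmonary dysplasia and asked what exosomes from M2 macrophages (M2-Exo) changed in each model. There were 4 groups of 3 libraries, all labelled 24 h. The paper names 10% fetal bovine serum, which itself carries lipoproteins, for the culture of the cells. It does not say whether serum was kept during the treatment of these libraries. The LPS group received 100 ng/mL lipopolysaccharide at 21% O2, and the LPS + M2-Exo group received the same plus 10 µg/mL M2-Exo. The Hyp group was kept at 85% O2 without lipopolysaccharide, and the Hyp + M2-Exo group was kept at 85% O2 with the same dose of M2-Exo. The exosomes came from MH-S cells, a mouse alveolar macrophage line, after IL-4. By the paper's methods they were given after the LPS or hyperoxia treatment. No untreated cells are among these libraries, so a difference between the LPS and Hyp groups cannot be told apart into an effect of LPS, an effect of oxygen, or any other difference between the cultures. The sources used here do not say whether the 3 libraries of a group came from separate cultures, and the p-values then measure only the spread between these libraries.

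Cholesterol synthesis is controlled by SREBP-2, the product of Srebf2, which SCAP carries from the endoplasmic reticulum to the Golgi when membrane sterol is low and which INSIG proteins hold back when sterol is ample. The part of SREBP-2 released there enters the nucleus and activates the genes of synthesis, among them Insig1, which closes a feedback loop. The liver X receptors, LXRβ (Nr1h2) and LXRα (Nr1h3), respond to oxysterols and activate the exporters Abca1 and Abcg1 and the ubiquitin ligase Mylip, which removes lipoprotein receptors. AT II cells need cholesterol as a component of the surfactant they store in lamellar bodies.

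Total counts per library ran from 16021833 to 19185116 in the LPS model and from 20231632 to 24074616 in the hyperoxia model, so every hyperoxia library was deeper. The 10 AT II markers summed to 428 to 443 CPM (the usual per-library unit of counts, here over TMM-scaled library sizes) in LPS, 420 to 440 in LPS + M2-Exo, 250 to 265 in Hyp and 241 to 254 in Hyp + M2-Exo. Sftpc was present at 10.6 to 23.3 CPM, while Sftpa1 and Sftpd had 0 counts in nearly all libraries. The epithelial genes Epcam and Krt18 stayed at 1.18 CPM or less beside 134 to 161 CPM of Krt8. The remaining epithelial gene, Cdh1, was at 15.6 to 18.7 CPM in the LPS model and 2.88 to 3.92 CPM in the hyperoxia model. The 10 macrophage markers summed to 390 to 430 CPM in LPS, 298 to 346 in LPS + M2-Exo, 89.6 to 96.1 in Hyp and 69.3 to 107 in Hyp + M2-Exo, with Csf1r, Adgre1, Lyz2 and Ptprc present in all 12 libraries and Chil3 at 0 in all of them. The 3 fibroblast markers summed to 32.2 to 34.8 CPM in the LPS model and 8.81 to 11.6 CPM in the hyperoxia model. In the other direction, the 3 endothelial markers summed to 0.123 to 0.652 CPM in the LPS model and 2.82 to 3.75 CPM in the hyperoxia model. In bulk libraries like these, fewer cells of a type and less RNA per cell cannot be told apart.

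To show what the members share in sequence, the 250 bases before each start site were read from RefSeq (build GRCm38.p6) for the 27 members found in that table. A CCAAT letter run, read on both strands, stood in 16 of the 17 synthesis genes found there (all but Acat2) and in 22 of all 27 members, against 37.5% of 27025 genes and 40.8% of the 9908 genes with a mean of at least 10 counts. CCAAT is the core letters bound by NF-Y, a factor that acts beside SREBP at many sterol genes. GGGCGG, the core of an Sp1 box, stood in 22 of the 27 members, against 35.4% of all genes and 64.0% of those with counts. The sterol regulatory element TCACNCCAC was present in 1 member, Hmgcs1 (1.22% of all genes), and its shorter form CACNCCAC in 3 (6.05% of all genes). The LXR element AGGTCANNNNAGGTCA and its second form AGGTTANNNNCGGTCA were in 0 of the 27, which says only that these letters are not in these windows. A match describes the letters and is not a bound site.

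The 200 bases before the start of the 3 members with CACNCCAC are given here, since they are the members whose windows hold the sterol regulatory element (Hmgcs1) or only its shorter form (Acat2 and Insig1). Capitals mark TCACNCCAC or CACNCCAC and CCAAT, on either strand, so that CACNCCAC can read GTGGNGTG and CCAAT can read ATTGG. Acat2 lies at chr17:12960726-12960925 on the minus strand, Hmgcs1 at chr13:119690151-119690350 on the plus strand and Insig1 at chr5:28071212-28071411 on the plus strand.
Acat2: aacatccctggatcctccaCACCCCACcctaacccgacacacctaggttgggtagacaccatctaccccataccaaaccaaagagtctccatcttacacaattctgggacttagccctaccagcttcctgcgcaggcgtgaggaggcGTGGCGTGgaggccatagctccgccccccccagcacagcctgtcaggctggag
Hmgcs1: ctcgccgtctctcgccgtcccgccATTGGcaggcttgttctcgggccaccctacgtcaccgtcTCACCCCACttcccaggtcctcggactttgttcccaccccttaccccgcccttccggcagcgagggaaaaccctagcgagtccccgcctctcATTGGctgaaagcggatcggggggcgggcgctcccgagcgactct
Insig1: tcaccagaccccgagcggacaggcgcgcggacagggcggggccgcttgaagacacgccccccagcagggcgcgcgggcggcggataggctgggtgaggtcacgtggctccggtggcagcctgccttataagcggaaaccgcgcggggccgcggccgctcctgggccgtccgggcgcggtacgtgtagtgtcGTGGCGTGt
In Hmgcs1 the element began 137 bases before the start, with ATTGG beginning 176 and 45 bases before it. Acat2 held the shorter form at 181 and, on the other strand, at 53 bases, and Insig1 held it on the other strand at 9 bases, with its ATTGG at 216 bases, outside the stretch shown. These starts are those of RefSeq. By the positions given with the counts, Insig1 begins at 28071363 and Acat2 at 12960747, both within the windows shown. The shorter form of Insig1 then lies inside the gene.

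**Figure D1:**
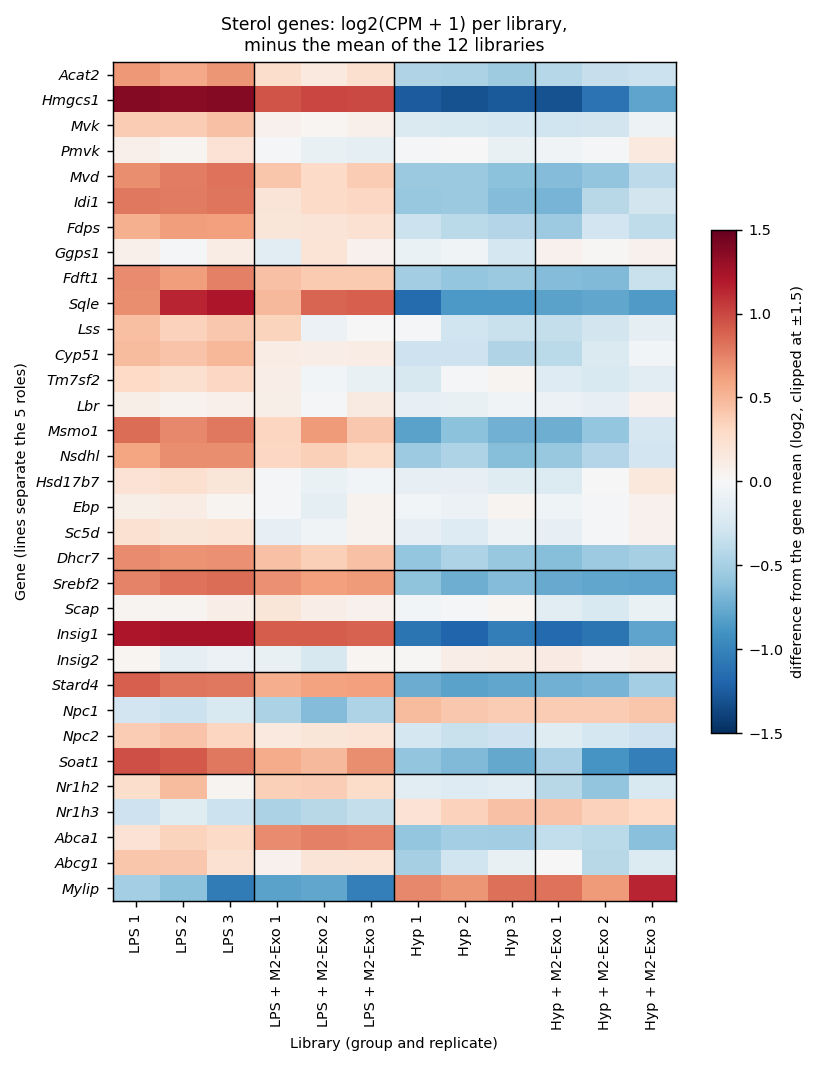
Level of each of the 33 genes in each of the 12 libraries, as log2(CPM + 1) minus the gene's mean over the libraries, in rows ordered by role and columns by group and replicate. Most synthesis genes are red in the 3 LPS libraries, paler in LPS + M2-Exo and blue in the 6 hyperoxia libraries, while Npc1, Nr1h3 and Mylip show the opposite colours.

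Levels per gene length are given as FPKM, counts scaled to gene length and library size. In LPS the most abundant members were Hmgcs1 (225 FPKM), Insig1 (220), Cyp51 (153) and Srebf2 (146). The least abundant were Abcg1 (0.498 FPKM), Mylip (0.523) and Abca1 (1.88). In Hyp the order differed at the top, where Cyp51 (92.0 FPKM) stood above Srebf2 (56.1), Fdft1 (49.4) and Insig1 (46.0), and Hmgcs1 was at 38.1 FPKM. Abcg1 rested on 18 to 42 counts per library and Mylip on 20 to 37 counts in LPS, so their values are the least precise of the list. By position 13 of the 33 genes overlap another gene, among them Cyp51 with Akap9 and Fdft1 with Ctsb, and since it is not stated whether counting used strand, reads of such neighbours may not be separable.

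The values that follow are CPM after TMM scaling, replicates 1 to 3 in order. In the mevalonate part, Acat2, the cytosolic thiolase that joins acetyl-CoA units, stood at 221, 208 and 223 CPM in LPS, 168, 156 and 166 in LPS + M2-Exo, 102, 100.4 and 96.7 in Hyp and 104, 110.1 and 112 in Hyp + M2-Exo. The 4 groups did not overlap, with LPS highest, LPS + M2-Exo next, and Hyp and Hyp + M2-Exo close together below. Of the 75-base stretches of Acat2 transcripts, 40.7% also occur in Acat3, so its reads cannot be fully separated from that copy. Hmgcs1, which makes HMG-CoA, stood at 756, 743 and 756 CPM in LPS, 559, 582 and 578 in LPS + M2-Exo, 121, 117 and 121 in Hyp and 117, 135 and 167 in Hyp + M2-Exo. Its LPS libraries lay far above both hyperoxia groups, LPS + M2-Exo lay between, and replicate 3 of Hyp + M2-Exo was the highest of the 6 hyperoxia libraries. Mvk, mevalonate kinase, stood at 71.9, 72.1 and 75 CPM in LPS, 57.6, 56.2 and 58 in LPS + M2-Exo, 47.1, 46.6 and 45.5 in Hyp and 44.6, 45.2 and 52 in Hyp + M2-Exo. The same order held over a narrower range, and Hyp and Hyp + M2-Exo overlapped.

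Mvd, the decarboxylase that yields isopentenyl diphosphate, stood at 154, 162 and 168 CPM in LPS, 126, 116 and 124 in LPS + M2-Exo, 64.1, 63.9 and 61.4 in Hyp and 60, 62.8 and 72.2 in Hyp + M2-Exo. Both LPS groups were separate from each other and above every hyperoxia library. Idi1, the isopentenyl diphosphate isomerase, stood at 549, 542 and 552 CPM in LPS, 362, 387 and 392 in LPS + M2-Exo, 212, 214 and 201 in Hyp and 194, 238 and 261 in Hyp + M2-Exo. No LPS + M2-Exo library came near the LPS libraries, and none fell to the hyperoxia range. For Idi1, 20.7% of the 75-base stretches are shared with 4 pseudogenes. Fdps, farnesyl diphosphate synthase, stood at 255, 273 and 269 CPM in LPS, 199, 201 and 205 in LPS + M2-Exo, 140, 133 and 129 in Hyp and 119.8, 144 and 134 in Hyp + M2-Exo. Its groups again separated by model and, within LPS, by M2-Exo. The other members of this part, Pmvk (phosphomevalonate kinase, 40.9 to 52.4 CPM) and Ggps1 (geranylgeranyl diphosphate synthase, 22.9 to 32 CPM), spanned a narrow range in which several groups overlapped.

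In the squalene and sterol part, Fdft1, squalene synthase, stood at 332, 312 and 343 CPM in LPS, 275, 266 and 265 in LPS + M2-Exo, 140.2, 136 and 137 in Hyp and 128, 128 and 161 in Hyp + M2-Exo. The LPS libraries were highest, the LPS + M2-Exo libraries lower without overlap, and 1 Hyp + M2-Exo library (replicate 3) stood apart from the other 5 hyperoxia libraries. Sqle, squalene epoxidase, stood at 221, 303 and 316 CPM in LPS, 190.4, 250 and 255 in LPS + M2-Exo, 60.4, 74.4 and 74.7 in Hyp and 77.6, 78.7 and 74.8 in Hyp + M2-Exo. LPS and LPS + M2-Exo overlapped. In LPS, LPS + M2-Exo and Hyp, replicate 1 was well below the other libraries of its group, and in Hyp + M2-Exo it was not. Cyp51, lanosterol demethylase, stood at 862, 832 and 871 CPM in LPS, 668, 663 and 666 in LPS + M2-Exo, 499.7, 499.7 and 453 in Hyp and 466, 532 and 599 in Hyp + M2-Exo. LPS and LPS + M2-Exo did not overlap, and the Hyp + M2-Exo libraries ran from within the range of Hyp to above it.

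Msmo1, methylsterol monooxygenase, stood at 252, 234 and 245 CPM in LPS, 177, 221 and 187 in LPS + M2-Exo, 80.5, 91.6 and 85.4 in Hyp and 84.6, 94.2 and 118 in Hyp + M2-Exo. Nsdhl, a sterol dehydrogenase that takes part in removing methyl groups, stood at 129, 139 and 139 CPM in LPS, 106, 109 and 104 in LPS + M2-Exo, 58.4, 61.9 and 54.6 in Hyp and 57.2, 62.5 and 69.7 in Hyp + M2-Exo. Dhcr7, a reductase of the last steps, stood at 123, 120.4 and 121 CPM in LPS, 102, 96.2 and 102 in LPS + M2-Exo, 49.8, 54 and 50.2 in Hyp and 47.8, 50.9 and 53 in Hyp + M2-Exo. In all 3 genes both LPS groups lay above both hyperoxia groups, LPS lay above LPS + M2-Exo without overlap, and Hyp overlapped Hyp + M2-Exo. The remaining 6 enzymes of this part were Lss (lanosterol synthase, 144 to 253 CPM), the sterol reductases Tm7sf2 (15.9 to 23.6 CPM) and Lbr (175 to 210.2 CPM), Hsd17b7 (a ketosterol reductase, 89.4 to 122 CPM), the isomerase Ebp (56.8 to 67.8 CPM) and the desaturase Sc5d (90.6 to 122 CPM). LPS had the highest mean in each of the 20 synthesis genes. In 15 of the 20, the mean of LPS + M2-Exo was below that of LPS and above both hyperoxia means. The exceptions were Pmvk, Ggps1, Hsd17b7, Ebp and Sc5d. Among the 15, Sqle and Lbr overlapped between LPS and LPS + M2-Exo, and the means of Lbr were 201 and 200 CPM.

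Among the regulators, Srebf2 stood at 720.1, 760 and 769.9 CPM in LPS, 691, 661 and 671 in LPS + M2-Exo, 284, 258 and 274 in Hyp and 254, 251 and 248 in Hyp + M2-Exo. All 4 groups were separate, and each group with M2-Exo was below its counterpart. Insig1, the feedback inhibitor, stood at 774, 788 and 789.8 CPM in LPS, 629, 628 and 618 in LPS + M2-Exo, 156, 146 and 162 in Hyp and 148, 157 and 193 in Hyp + M2-Exo. LPS and LPS + M2-Exo were tight and separate, and replicate 3 of Hyp + M2-Exo was the highest of the hyperoxia libraries. Insig2, the second inhibitor, stood at 41.4, 37 and 38.2 CPM in LPS, 37.4, 34.2 and 41.4 in LPS + M2-Exo, 41.3, 43.7 and 43.9 in Hyp and 44.2, 42.5 and 43.5 in Hyp + M2-Exo. Scap, the SREBP carrier, stood at 111, 111 and 116 CPM in LPS, 122, 115 and 113 in LPS + M2-Exo, 105, 105 and 110.3 in Hyp and 96.1, 91.8 and 100.4 in Hyp + M2-Exo. Neither of the last 2 followed the synthesis genes, and their 12 libraries stayed within a narrow band.

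Of the genes that move or store cholesterol, Stard4, a soluble sterol carrier, stood at 321, 299.5 and 297 CPM in LPS, 250.2, 262 and 263 in LPS + M2-Exo, 102, 98.1 and 99.6 in Hyp and 103, 105 and 119.7 in Hyp + M2-Exo. Its 4 groups did not overlap and were in the order of Acat2. Npc2, the soluble lysosomal cholesterol binder, stood at 232, 241 and 222 CPM in LPS, 198, 202 and 205 in LPS + M2-Exo, 148, 141 and 144 in Hyp and 156, 148 and 144 in Hyp + M2-Exo. It too was highest in LPS, whereas its membrane partner Npc1, which exports cholesterol from lysosomes, stood at 42.5, 41.6 and 44.3 CPM in LPS, 37.3, 33.1 and 37.6 in LPS + M2-Exo, 73.3, 69.3 and 68.6 in Hyp and 68.2, 68.5 and 70.1 in Hyp + M2-Exo. Every LPS and LPS + M2-Exo library of Npc1 was below every hyperoxia library. Soat1, which esterifies cholesterol for storage, ranged from 40.2 to 45.7 CPM in LPS, 32.4 to 37.5 in LPS + M2-Exo, 13 to 14.9 in Hyp and 10.7 to 16 in Hyp + M2-Exo.

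Of the uptake and efflux genes, Abca1, which exports cholesterol to lipid-poor apolipoprotein, stood at 19.6, 21.3 and 20.6 CPM in LPS, 28, 28.9 and 28.4 in LPS + M2-Exo, 10.8, 11.5 and 11.4 in Hyp and 12.8, 12.4 and 10.5 in Hyp + M2-Exo. LPS + M2-Exo was the highest group, above LPS without overlap, and both hyperoxia groups were lowest. Abcg1, which exports cholesterol to lipoprotein particles, stood at 2.30, 2.26 and 1.90 CPM in LPS, 1.59, 1.84 and 1.85 in LPS + M2-Exo, 0.748, 1.02 and 1.29 in Hyp and 1.46, 0.849 and 1.15 in Hyp + M2-Exo. It was higher in the LPS model and its values were widely spread within the hyperoxia groups. Nr1h2 stood at 93.2, 108 and 79.8 CPM in LPS, 99.7, 101 and 94 in LPS + M2-Exo, 69.1, 67.8 and 68.9 in Hyp and 58.1, 51.2 and 65.9 in Hyp + M2-Exo. LPS and LPS + M2-Exo overlapped above both hyperoxia groups. Nr1h3 stood at 12.7, 14 and 12.7 CPM in LPS, 11.3, 11.8 and 12.4 in LPS + M2-Exo, 18.9, 20.7 and 22.2 in Hyp and 21.9, 20.6 and 20 in Hyp + M2-Exo. Mylip stood at 2.03, 1.83 and 1.09 CPM in LPS, 1.47, 1.52 and 1.12 in LPS + M2-Exo, 6.11, 5.87 and 6.65 in Hyp and 6.58, 5.72 and 8.54 in Hyp + M2-Exo. Both of these were higher in all 6 hyperoxia libraries than in any LPS or LPS + M2-Exo library.

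M2-Exo in the LPS model went with lower RNA of synthesis enzymes, with most of the calls in the mevalonate part. In LPS + M2-Exo against LPS, 8 members fell (Idi1, Hmgcs1, Cyp51, Fdps, Insig1, Acat2, Mvd and Mvk) and 1 rose (Abca1), by edgeR's quasi-likelihood test at a Benjamini-Hochberg adjusted p under 0.05. That is 9 of 33, where 25 of all 13353 genes tested were called (0.187%, with 0.135% lower and 0.0524% higher). Since the list was chosen with earlier results known, this share and those below describe the members and are no independent test. In the mevalonate part 6 of 8 enzymes fell by this threshold, and in the squalene and sterol part 1 of 12 did, a difference that was not itself tested. Of these 12, 11 had a negative log2 fold change and 9 were lower at an unadjusted p under 0.05 (edgeR). The median was -0.27 in the sterol part and -0.38 in the mevalonate part. Of the 20 synthesis genes, 18 had a negative log2 fold change, the median was -0.29 and the median of all genes tested was 0.

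Idi1 changed most among the synthesis genes, with a log2 fold change of -0.51 ± 0.036 (SE, adjusted p = 0.00248), a level 1.42-fold lower. Hmgcs1 had a log2 fold change of -0.37 ± 0.03 (SE, adjusted p = 0.00346). Fdps had a log2 fold change of -0.38 ± 0.034 (SE, adjusted p = 0.00585). These 3 falls, and those of Acat2 and Mvd (both -0.39) and Mvk (-0.33), cover a narrow range, and their adjusted p lay between 0.00248 and 0.0296. In the sterol part Cyp51 had a log2 fold change of -0.34 ± 0.03 (SE, adjusted p = 0.00451). The other sterol enzymes whose log2 fold changes were of like size did not pass, among them Nsdhl at -0.34 (adjusted p = 0.0534), Dhcr7 at -0.26 (0.057) and Fdft1 at -0.28 (0.069). Sqle, whose replicates were far apart, had a log2 fold change of -0.25 ± 0.15 (SE, adjusted p = 0.586). Ggps1 (0.01) and Lbr (0.02) were the synthesis genes at or above 0.

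Insig1 was the regulator that fell, with a log2 fold change of -0.31 ± 0.029 (SE, adjusted p = 0.00662). Srebf2 had a log2 fold change of -0.14 ± 0.035 (SE, adjusted p = 0.239) and did not pass, although its groups did not overlap. Scap (0.07) and Insig2 (-0.03) did not pass. All 4 genes of transport and storage had negative values, from -0.18 for Npc2 to -0.31 for Soat1, and 0 of them passed. By unadjusted p under 0.05, 22 of the 33 members were lower and 1 was higher, where 6.1% and 4.99% of all genes were. In 24 members every LPS + M2-Exo library was below every LPS library, against 11.1% of all genes.

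Abca1 was the member that rose, with a log2 fold change of 0.49 ± 0.063 (SE, adjusted p = 0.0347). Its call is the least certain, since it was lost in 9 of the 15 alternative fits, which include all 6 that left out 1 library, with adjusted p up to 0.208. Among the falls, Mvk was lost in 8 of the 15 fits and Mvd in 5, and Idi1 was called in all 15. The other exporter, Abcg1, had a log2 fold change of -0.27 ± 0.18 (SE, adjusted p = 0.643), with a 95% interval from -0.69 to 0.14. Nr1h2 (0.08), Nr1h3 (-0.13) and Mylip (-0.25) did not pass either, and the interval of Mylip ran from -0.92 to 0.41.

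The sum of the macrophage markers moved in the same comparison. It was 390 to 430 CPM in LPS and 298 to 346 CPM in LPS + M2-Exo. Mrc1 and Arg1 went the other way by mean, Mrc1 at 0.815 and 1.21 CPM with overlap, and Arg1 at 3 counts or fewer. The part of the macrophage markers in the lower synthesis genes was not tested. Macrophages also express Abca1, and the part of these markers in its rise was not tested. Over the 15 alternative fits the number of called members ran from 1 to 16. With the Wald test of DESeq2 it was 16, 15 lower and 1 higher, and in a fit of all 12 libraries it was 5, 4 lower and 1 higher. Without replicate 3 of LPS, or without replicate 3 of LPS + M2-Exo, 5 members were called, all lower and all among the 9.

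**Figure D2:**
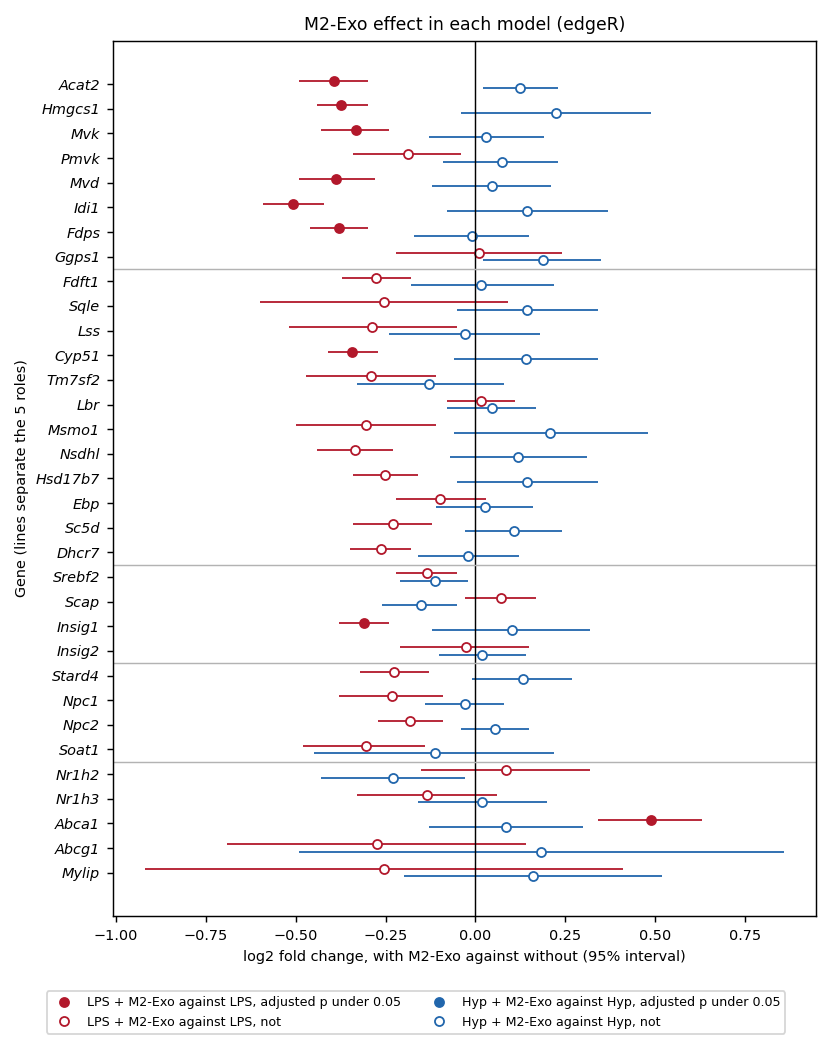
The M2-Exo effect on each of the 33 genes as a log2 fold change with its 95% interval, in LPS (red) and in hyperoxia (blue), with filled points for an adjusted p under 0.05. Most red points lie left of 0, with Abca1 alone clearly to the right, and the blue points lie close to 0 with 0 of them filled.

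In hyperoxia no such change was detected. In Hyp + M2-Exo against Hyp, 0 of the 33 members passed by edgeR and 0 by DESeq2, where 0.101% of all 13815 genes tested did (14 genes by edgeR). At an unadjusted p under 0.05 there were 2 higher members, Acat2 and Ggps1, and 3 lower, Scap, Srebf2 and Nr1h2, against 3.83% and 4.65% of all genes. The synthesis genes had a median of 0.09, with 16 of 20 above 0. Hmgcs1 had a log2 fold change of 0.22 ± 0.11 (SE, adjusted p = 0.606), with a 95% interval from -0.04 to 0.49. Idi1 had a log2 fold change of 0.14 ± 0.096 (SE, adjusted p = 0.672), with an interval from -0.08 to 0.37. Abca1 had a log2 fold change of 0.08 ± 0.094 (SE, adjusted p = 0.797), with an interval from -0.13 to 0.30.

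The Hyp + M2-Exo libraries were spread more widely than the others. The median coefficient of variation of the synthesis genes was 8.29% there, against 3.03% in LPS, 4.19% in LPS + M2-Exo and 4.11% in Hyp. Replicate 3 was the highest of its group in 17 of the 20 synthesis genes and replicate 1 the lowest in 15. The 20 genes summed to 2157, 2363 and 2626 CPM in replicates 1 to 3, and the macrophage markers were highest in replicate 1 and lowest in replicate 3, for example Csf1r at 23.1, 16.9 and 14.4 CPM. Their part in this spread was not tested.

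Whether M2-Exo acted differently in the 2 models was tested in all 12 libraries, as its effect in LPS minus its effect in hyperoxia. It passed for 1 member, Acat2, with a log2 difference of -0.52 ± 0.059 (SE, adjusted p = 0.00639), where 5 of 14187 genes did (0.0352%). The M2-Exo effect on Acat2 was -0.39 in LPS and 0.12 in hyperoxia (adjusted p = 0.567), and its groups with and without M2-Exo did not overlap in either model. All 20 synthesis genes had a negative difference, with a median of -0.37 and the largest for Idi1 (-0.66, adjusted p = 0.119) and Hmgcs1 (-0.60, adjusted p = 0.202). By unadjusted p under 0.05 there were 18 members below 0 and 2 above (Abca1 and Scap), against 4.84% and 4.93% of all genes. The call of Acat2 was lost in 1 of the 20 alternative fits (adjusted p = 0.118), in which 0 members passed. Without replicate 1 of Hyp + M2-Exo, 8 members passed, all negative, with DESeq2 12 did, and each other alternative gave 1 or 2.

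The LPS and hyperoxia models differed far more than the groups with and without M2-Exo. In LPS against Hyp, 27 members were higher and 3 lower (Npc1, Nr1h3 and Mylip), which is 30 of 33 in a comparison where 75.8% of the 13805 genes tested were called (37.8% higher and 38% lower). Of the 20 synthesis genes 19 were higher, and Ebp (0.11, adjusted p = 0.0679) did not pass. Their median log2 fold change was 0.91, and that of all genes tested was -0.01. The mevalonate part had a median of 1.06 and the sterol part one of 0.72.

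Hmgcs1 had the largest value, with a log2 fold change of 2.65 ± 0.03 (SE, adjusted p = 5.41e-09), which is 6.29-fold, and it had the smallest p of all genes tested in this comparison. Idi1 (1.39) and Mvd (1.36) followed in the mevalonate part, then Acat2 (1.12), Fdps (0.99) and Mvk (0.66). In the sterol part Sqle had a log2 fold change of 2.01 ± 0.14 (SE, adjusted p = 5.15e-06), followed by Msmo1 (1.51), Fdft1 (1.26), Dhcr7 (1.24), Nsdhl (1.22) and Cyp51 (0.82). The smallest called values were those of Pmvk (0.16), Lbr (0.17) and Ggps1 (0.20). The calls of Pmvk and Ggps1 are the least certain, since each was lost in 11 of the 15 alternative fits, with adjusted p up to 0.283 and 0.219, and Lbr was lost in 3, with adjusted p up to 0.0604. Scaling by library size alone, which lowers the median of all genes to -0.10, was among the fits that lost all 3.

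The activator Srebf2 and its inhibitor Insig1 were both higher in LPS. Srebf2 had a log2 fold change of 1.47 ± 0.045 (SE, adjusted p = 7.43e-08) and Insig1 had a log2 fold change of 2.34 ± 0.043 (SE, adjusted p = 1.63e-08), which is 2.76-fold and 5.08-fold. Scap (0.08) and Insig2 (-0.14) did not pass. Stard4 had a log2 fold change of 1.62 ± 0.039 (SE, adjusted p = 2.93e-08), Soat1 a log2 fold change of 1.63 and Npc2 one of 0.69. Npc1 was lower, with a log2 fold change of -0.71 ± 0.05 (SE, adjusted p = 4.33e-06), so the 2 partners of lysosomal export differed in direction.

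The uptake and efflux genes divided. Abca1 (0.87), Abcg1 (1.08) and Nr1h2 (0.45) were higher in LPS, and Nr1h3 (-0.64) was lower. Mylip had a log2 fold change of -1.91 ± 0.2 (SE, adjusted p = 4.73e-05), which is 3.75-fold lower and rests on 20 to 37 counts per LPS library. The levels of cell type markers also differed between the models. The macrophage sum was 390 to 430 CPM in LPS against 89.6 to 96.1 CPM in Hyp. The AT II sum was 428 to 443 against 250 to 265 CPM, in which Nkx2-1 was higher in LPS (171 to 175 against 38 to 42 CPM) while Sftpb (1.26 to 1.78 against 4.15 to 5.07 CPM) and Etv5 (35.8 to 36.8 against 47.1 to 56.1 CPM) were lower. The fibroblast sum was 32.5 to 34.8 against 8.81 to 10.5 CPM, mostly from Pdgfra (21.2 to 23.2 against 0.914 to 1.21 CPM), with Col1a1 at 10.5 to 11.5 against 7.39 to 8.67 CPM and Col1a2 overlapping between the groups. Cdh1 was at 15.6 to 17.4 against 3.22 to 3.74 CPM, and the endothelial sum was lower in LPS, at 0.219 to 0.652 against 2.82 to 3.27 CPM. The part of all these markers in the differences of the sterol genes was not tested.

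With M2-Exo in both models the log2 fold changes of the synthesis genes between the models were smaller. In LPS + M2-Exo against Hyp + M2-Exo, 21 members were higher and 4 lower (Insig2, Npc1, Nr1h3 and Mylip), where 73.7% of the 13660 genes tested were called (36.5% higher and 37.1% lower). Of the synthesis genes 13 of 20 were higher with a median of 0.48, against 19 of 20 with a median of 0.91 without M2-Exo. Pmvk, Ggps1, Tm7sf2, Lbr, Hsd17b7, Ebp and Sc5d did not pass. Hmgcs1 had a log2 fold change of 2.05 ± 0.11 (SE, adjusted p = 1.4e-06), Insig1 a log2 fold change of 1.93 ± 0.091 (SE, adjusted p = 6.34e-07) and Srebf2 a log2 fold change of 1.44 ± 0.035 (SE, adjusted p = 4.95e-08). Scap was higher here (0.30) and Insig2 lower (-0.19, adjusted p = 0.0404), a call lost in 7 of the 15 alternative fits, and the call of Lss (0.36) was lost in 4. Abca1 had a log2 fold change of 1.27 ± 0.092 (SE, adjusted p = 5.68e-06) and Mylip a log2 fold change of -2.32 ± 0.22 (SE, adjusted p = 2.53e-05), both farther from 0 than without M2-Exo, while Abcg1 (0.62, adjusted p = 0.0502) did not pass. These shifts are the same contrast as the effect in LPS minus that in hyperoxia given above, which Acat2 alone among the members passed.

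**Figure D3:**
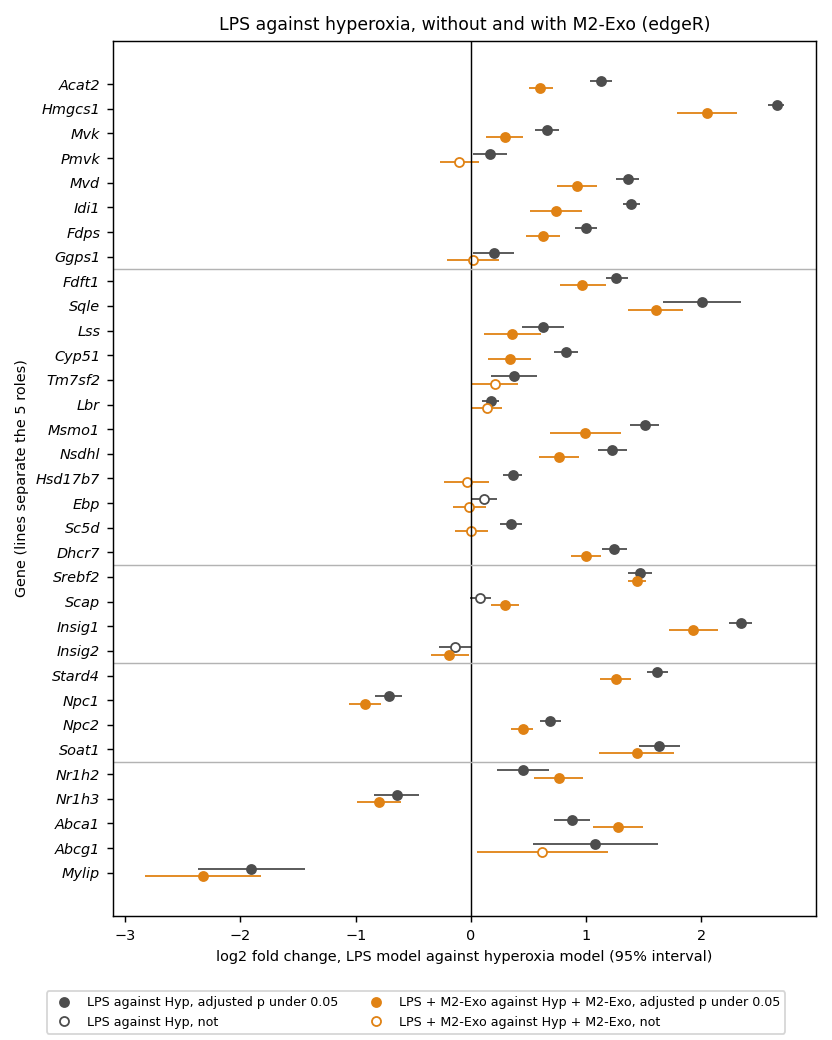
The difference between the LPS and hyperoxia models for each of the 33 genes as a log2 fold change with its 95% interval, without M2-Exo (grey) and with M2-Exo (orange), with filled points for an adjusted p under 0.05. For most synthesis genes the orange point lies closer to 0 than the grey one, and Npc1, Nr1h3 and Mylip lie left of 0 in both.

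Set against each other, summed synthesis was lower with M2-Exo in LPS while summed uptake and efflux overlapped. Between the models, both sums were higher in LPS than in Hyp when taken in CPM. In FPKM the uptake and efflux sum was 15.8 ± 2 in LPS and 15.6 ± 0.529 in Hyp (SD, n = 3), with overlap. The summed level of the 20 synthesis genes was 4832 ± 85.6 CPM in LPS, 3813 ± 40.1 in LPS + M2-Exo, 2232 ± 48.4 in Hyp and 2382 ± 235 in Hyp + M2-Exo (SD, n = 3). LPS + M2-Exo thus held 78.9% of the LPS level, and Hyp held 46.2% of it. The 5 uptake and efflux genes summed to 131 ± 15.5, 142 ± 3.51, 108 ± 2.08 and 99.3 ± 7.75 CPM in the same order of groups, a sum in which Nr1h2 was the largest term. The LPS and LPS + M2-Exo libraries overlapped in this sum and not in the sum of synthesis. Synthesis divided by uptake and efflux gave 37.3 ± 5.06 in LPS, 27 ± 0.907 in LPS + M2-Exo, 20.7 ± 0.907 in Hyp and 24.1 ± 2.39 in Hyp + M2-Exo. The 2 exporters alone, Abca1 and Abcg1, summed to 22.7 ± 0.862, 30.2 ± 0.656, 12.3 ± 0.586 and 13 ± 1.31 CPM. These sums are descriptions and were not tested.

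**Figure D4:**
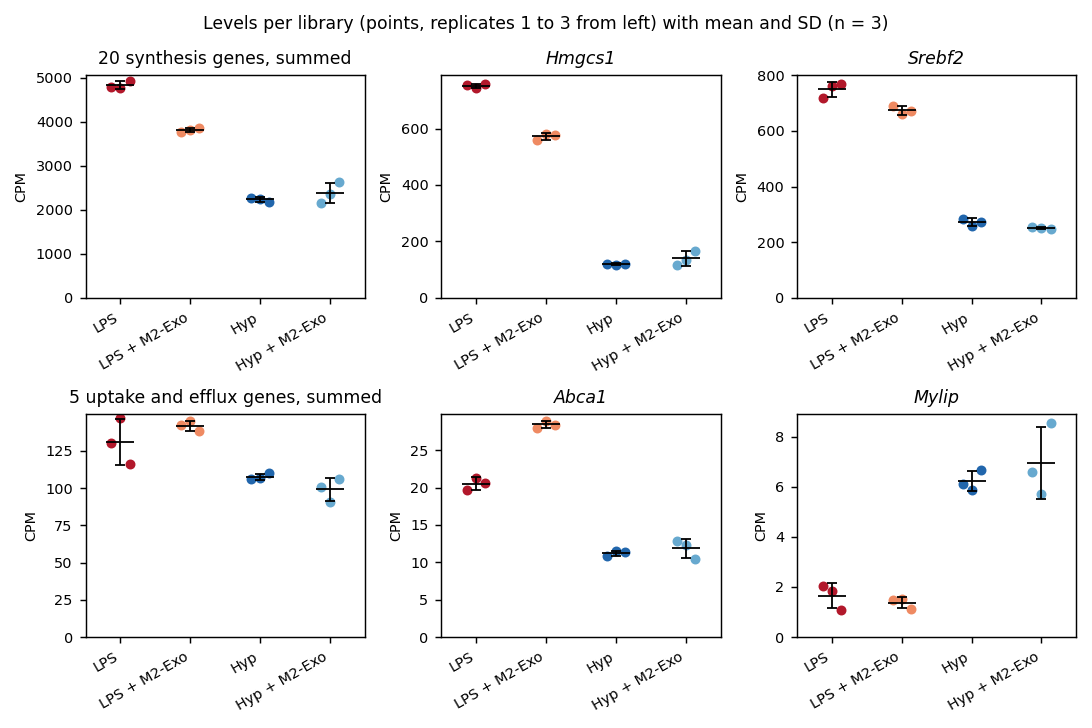
CPM in each library (points) with the mean and SD of the 3 libraries of a group, for the summed synthesis genes, Hmgcs1 and Srebf2 in the upper row and the summed uptake and efflux genes, Abca1 and Mylip in the lower row. Summed synthesis is highest in LPS, lower in LPS + M2-Exo and lowest in the hyperoxia groups, Abca1 is highest in LPS + M2-Exo, and Mylip is highest in the hyperoxia groups.

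Other genes of the pathway, outside the 33, were taken from a second list of 38, of which 36 were tested in these pairs of groups and Ch25h and Cyp7b1 were too low. In LPS + M2-Exo against LPS, 0 of them passed by edgeR and 0 by DESeq2, with 4 higher and 5 lower at an unadjusted p under 0.05 and a median of 0.01. In Hyp + M2-Exo against Hyp, 0 passed by either tool, with 1 higher and 3 lower at an unadjusted p under 0.05. LPS against Hyp called 30 of the 36 (83.3%, beside 75.8% of all genes tested), 15 in each direction, with a median of -0.03.

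Those with the smallest adjusted p were Lrp1, a large lipoprotein receptor, and Rnf145, a ubiquitin ligase that acts on SCAP. Lrp1 stood at 501, 509 and 542 CPM in LPS and 123, 115 and 119 CPM in Hyp, and was higher by 2.12 on the log2 scale (adjusted p = 1.92e-08, edgeR). Rnf145 stood at 179, 171 and 179 CPM in LPS and 47.1, 45.5 and 48.0 CPM in Hyp, higher by 1.91. Lower in LPS were Vldlr, the very-low-density lipoprotein receptor and a target of Mylip, by -2.16 (5.65, 6.36 and 6.19 CPM in LPS against 28.0, 29.3 and 24.6 CPM in Hyp), and Pdss1, which makes the isoprenoid tail of ubiquinone, by -1.62. The groups of each of these genes were far from overlapping. With M2-Exo in both models 29 passed (80.6%, beside 73.7% of all genes tested), 15 higher and 14 lower. Those with the smallest adjusted p were Rnf145 (1.97), Lrp1 (2.18), Vldlr (-2.07) and Mbtps1 (0.77), the protease that makes the first cut in SREBP. The isoprenoid branches (10 genes) had 0 higher and 6 lower in LPS against Hyp, where 37.8% and 38% of all genes tested were.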

How the data were processed

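RNA was sequenced from 12 libraries of MLE-12 cells. The authors filtered the reads with Seqtk and mapped them with HISAT2 (version 2.0.4 and build GRCm38 per the submitters' processing notes, which also name StringTie 1.3.0 and edgeR). The counting program, the annotation and whether counting used strand are not given in the sources used here. The table deposited by the authors holds raw read counts and FPKM for 34745 genes. The deposited FPKM followed from the counts with gene length and library total (largest relative deviation 0.000549), and 0 columns were left unused. The authors' own comparisons were not part of the values used.

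Here edgeR 4.0.16 under R 4.3.3 was applied to the counts (filterByExpr, TMM, quasi-likelihood F test) in the 6 libraries of each pair of groups, and in all 12 for the difference of the M2-Exo effect. P-values were adjusted over all genes tested by Benjamini-Hochberg, and a gene was called at an adjusted p under 0.05. The common biological coefficient of variation was 8.78% to 9.41%. CPM were computed from the counts with TMM factors over all libraries. The test was also run on simulated data, whose planted changes were all in genes with more counts than Abcg1. That outcome is not given here and says nothing about the least abundant members. The 33 members and all lists were chosen with earlier results of these data known. Values per library were given for members called in a comparison, at most the 12 with the smallest adjusted p, and for the regulators and the uptake and efflux genes. From the other 38 genes at most 4 per comparison were named. Alternatives were RLE or library-size scaling, no filter or at least 10 counts in every library, DESeq2 1.42.0, limma 3.58.1 on log2(FPKM + 1) or log2(FPKM + 0.1) of genes with a mean FPKM of at least 1, all 12 libraries in 1 fit, the replicate number as a block, and each library left out.

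Replicates of a group differed by more than counting noise (chi-square of 7.01 to 11.6 per gene). Overlaps by position were taken from the gene positions given with the counts. The 75-base stretches shared with other genes (7 of the 33 members) were taken from the transcripts of GENCODE M21. Some genes of the pathway are not reported here.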

Additional observations from a re-analysis of the deposited data

Results flagged for a closer look

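Acat2 was noted because the effect of M2-Exo on it differed between the LPS and the hyperoxia model by the interaction test of edgeR. The log2 difference, LPS minus hyperoxia, was -0.52 ± 0.059 (SE, adjusted p = 0.00639), from an effect of -0.39 in LPS and 0.12 in hyperoxia. Of its 75-base transcript stretches 40.7% are shared with Acat3, and the part of that copy in the difference was not tested. The call held in 19 of the 20 alternative fits and was lost with the replicate block (adjusted p = 0.118).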

How the results depend on the processing

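In LPS + M2-Exo against LPS, where 9 members and 25 of all genes were called, DESeq2 called 16 members (125 of all genes), the fit of all 12 libraries 5 (12), and the fit with the replicate block 1 (6). Fits without 1 library gave 5 to 8. For the difference of the M2-Exo effect, where 1 member and 5 of all genes were called, DESeq2 called 12 (67), the fit with no filter 2 (13) and the replicate block 0 (1), and leaving out 1 library gave 1 to 8, with 8 (34) without replicate 1 of Hyp + M2-Exo. Calls in Hyp + M2-Exo against Hyp were 0 of the members in every alternative, where DESeq2 called 37, the replicate block 8 and the fit of all 12 libraries 2 of all genes against 14. LPS against Hyp called 27 to 30 members, of which 26 to 30 were among the 30 reported, and the same comparison with M2-Exo called 24 to 28, of which 23 to 25 were among the 25 reported, with 28 and 26 called under the replicate block. Deviations of same-numbered replicates were weakly correlated (-0.031 to 0.081, and 0.005 to 0.081 in both comparisons of M2-Exo). The numbers were not taken to pair the libraries, but values this small do not exclude a pairing. The counts under the replicate block are those that would hold with it. Of 1429 values of named genes under the alternatives, 1351 kept their side of the threshold, 69 no longer passed, 9 newly passed and 0 reversed while called. The 1351 include sign changes of genes that were not called. An example is Insig1 in Hyp + M2-Exo against Hyp, at 0.10 in the main fit and -0.02 at the lowest. The median of the 5 uptake and efflux genes changed sign with limma on FPKM, where the least abundant of them fall under the filter, from 0.45 to -0.12 and -0.18 in LPS against Hyp, from 0.62 to -0.03 and -0.10 with M2-Exo, from -0.13 to 0.08 and 0.09 in LPS + M2-Exo against LPS, and from -0.16 to 0.09 and 0.08 for the difference of the effects. Limma on log2(FPKM + 0.1) moved the median of all genes to -0.11 in LPS against Hyp, and the synthesis median stayed between 0.80 and 0.93 there. The counts of 18 to 42 per library limit Abcg1, and the causes of these shifts were not tested.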

Other observations

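Arl4c, a target of the liver X receptors outside the 33 genes and chosen after its values were seen, was uneven within groups. It stood at 263, 87.0 and 138 CPM in LPS against 276, 269 and 286 CPM in LPS + M2-Exo. In hyperoxia it stood at 223, 109 and 104 CPM without M2-Exo against 233, 210 and 199 CPM with it. In each model replicate 1 without M2-Exo was close to the libraries with M2-Exo and the other two were lower. The log2 fold change was 0.79 in LPS (adjusted p = 0.443, edgeR) and 0.56 in hyperoxia (adjusted p = 0.602), so neither passed. Scarb1, a receptor for high-density lipoprotein, also chosen after its values were seen, was lower with M2-Exo in all 3 libraries of hyperoxia, at 83.8, 85.7 and 84.3 CPM against 95, 95.1 and 95 CPM, and did not pass (log2 fold change -0.16, adjusted p = 0.471).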
